A study of Mus musculus with 5 samples.

Results

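The genes described here encode the adhesion molecules and the inner plaque of the desmosome: the desmocollins Dsc1, Dsc2 and Dsc3, the desmogleins Dsg1a, Dsg2 and Dsg3, and the plaque proteins Jup (plakoglobin), Pkp1 and Pkp3 (plakophilins) and Dsp (desmoplakin). They were taken by gene name, and the family was chosen by the measured difference of Dsc2 between the genotypes, so that difference is given as a description and not as a test. All 10 of the listed genes were among the 10664 genes of the comparison. Keratinocytes were sorted from mouse skin wounds on day 5 after wounding, from 2 Nrf2 conditional knockout (cKO) samples of genotype K14Cre-ER; Nrf2 flox/flox and 3 wild-type (WT) littermate samples of genotype K14Cre-ER; Nrf2 +/+. Both groups therefore carry K14Cre-ER, an inducible Cre driven by the keratin 14 promoter, which is active in basal keratinocytes. The age of the animals, the inducing treatment and whether the samples came from separate animals are not given in the sources used here. The sorted cells were live, positive for CD49f (integrin alpha 6) and negative for a mix of blood lineage antibodies, and came from the skin around a 10 mm wound, taken with a 15 mm punch.

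A desmosome is a button-like junction that rivets neighbouring cells together. Desmocollins and desmogleins are transmembrane cadherins that meet those of the next cell in the gap between the membranes, and their tails bind plakoglobin and plakophilins. Desmoplakin then ties this plaque to the keratin filaments, which makes the epidermis resistant to tearing. In the epidermis Dsc3 and Dsg3 are strongest in the lower layers and Dsc1 and Dsg1 in the upper layers, while Dsc2 and Dsg2 are the forms shared with simple epithelia and heart muscle. Keratinocytes that migrate into a wound remodel these contacts.

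Each gene had a log2 fold change, a mean level over the comparison in CPM (counts scaled to the library), a p-value and an adjusted p, all from the authors' deposited table, and every fold change, level and p below is a value of that table or follows from it. Values per sample were not analysed here, so no level can be given for a single library and the spread between libraries cannot be shown. Fold changes were turned so that a positive value means higher in cKO. CPM are not corrected for transcript length unless they were made from TPM. The title of the deposited comparison names TPM, but the sources do not say how its CPM were made. Mean levels are therefore not ranked between genes. A gene is called changed where its adjusted p in the authors' deposited table was under 0.05.

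Dsc2 rose in cKO, and the other 9 genes of the family did not pass the test. In the authors' deposited table Dsc2 stood at a log2 fold change of 4.15, a 17.7-fold higher level in cKO, with adjusted p = 9.98e-07 and 145 CPM on average. The other 9 genes had log2 fold changes there between -0.18 and 0.38, with a median of 0.32, and none had an adjusted p below 1. The family thus had 1 called gene of 10, higher in cKO. The share of called genes in the authors' deposited table was 2.61% over all genes, and 0.459% were called higher. Among the 6189 genes at 16 CPM or more, a range that holds all 10 genes, 0.485% were called and 0.0646% were called higher. In bulk samples, more cells of a type that makes a transcript cannot be told apart from more of that transcript per cell.

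**Figure D1:**
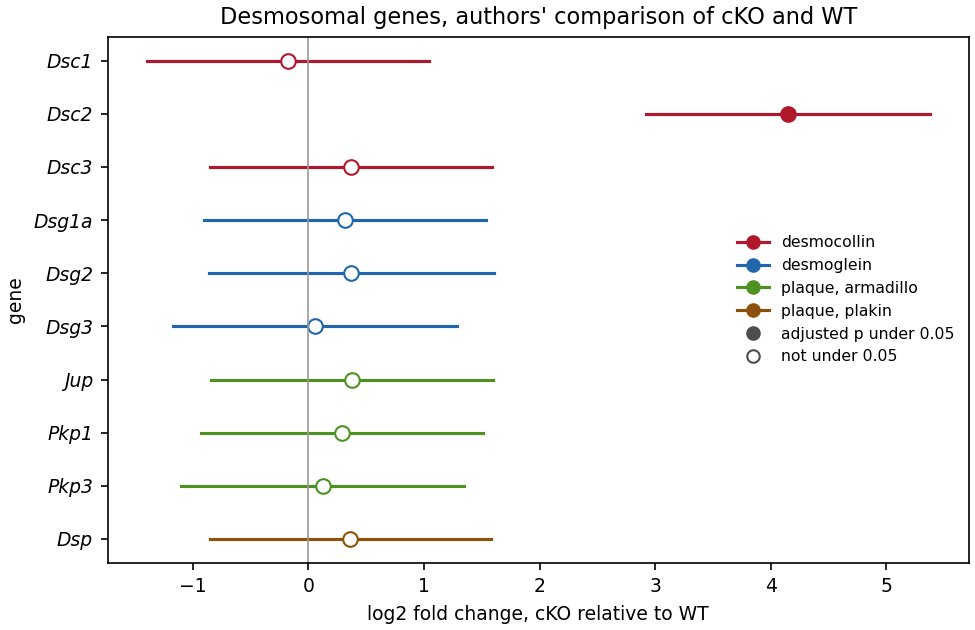
Log2 fold change of cKO relative to WT for the 10 desmosomal genes (horizontal axis), from the authors' deposited table. Points are the deposited values, filled where the adjusted p was under 0.05, and bars are 95% intervals implied by the deposited p-values of genes at a like level. Dsc2 stands at 4.15, and the bars of the other 9 genes include 0.

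The precision behind these values can be read only from the deposited p-values. Genes of like mean level with absolute log2 fold changes of 0.5 to 3 had an implied standard error (the fold change divided by the normal score of its p) of 0.622 to 0.630 near the levels of the 10 genes. This standard error follows from the authors' test. Among genes at 16 CPM or more, the smallest absolute log2 fold change with an unadjusted p under 0.05 was 1.27. The largest without such a p was 1.40. The deposited p thus followed the size of the change closely at these levels. The intervals below therefore do not show the spread of each gene between samples. The 95% interval that this standard error gives for Dsc2 ran from 2.92 to 5.37. For the other 9 genes the lowest limit was -1.40 and the highest 1.61. A change of up to 3.05-fold upwards, or down to 0.380 of the WT level, is therefore not decided for them. Among genes at 16 CPM or more, the smallest called change in either direction was 2.36 on the log2 scale, or 5.13-fold. The interval of Dsc2 lay apart from those of the other genes, but Dsc2 was picked for this change, so that is not a test. The difference between Dsc2 and the rest of the family was not tested.

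Among the desmocollins, which are 3 neighbouring genes of 1 strand, only the middle gene was called. Dsc2 (ENSMUSG00000024331) lies on chromosome 18 from 20030633 to 20059554 on the minus strand of mm10. Its level in each genotype was worked out from the mean and the fold under an assumption about the weights. With equal weights the mean of 145 CPM and the 17.7-fold change correspond to 15.5 CPM in WT and 274 CPM in cKO. If all 3 WT and 2 cKO samples entered the comparison, weights by samples give 18.8 CPM and 334 CPM. Under either weighting the WT level worked out for Dsc2 was not near 0 CPM. Levels of single WT libraries were not available, so the part of a pseudocount in this fold was not tested.

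Dsc3 (ENSMUSG00000059898, chromosome 18, 19960930 to 20002351, minus strand), the desmocollin of the lower epidermis, had 0.37 on the log2 scale at 2897 CPM in the authors' deposited table, with an interval of -0.85 to 1.59. Dsc1 (ENSMUSG00000044322, chromosome 18, 20084184 to 20114871, minus strand), the desmocollin of the upper epidermis, had -0.18 at 514 CPM, with an interval of -1.40 to 1.04. It was the 1 gene of the 10 with a lower value in cKO. Neither the lower-layer nor the upper-layer desmocollin passed the test.

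All 3 desmogleins had small positive log2 fold changes, from 0.06 to 0.37, and none was called. Dsg2 (ENSMUSG00000044393, chromosome 18, 20558074 to 20604521, plus strand), which like Dsc2 is shared with simple epithelia, had 0.37 at 50.8 CPM in the authors' deposited table. Its interval ran from -0.86 to 1.61. Dsg3 (ENSMUSG00000056632, chromosome 18, 20510274 to 20547459, plus strand), the target of antibodies in the blistering disease pemphigus vulgaris, had 0.06 at 137 CPM, the value nearest to 0 of the 10 genes. Dsg1a (ENSMUSG00000069441, chromosome 18, 20310811 to 20343350, plus strand), a mouse counterpart of human desmoglein 1, had 0.32 at 5650 CPM. Its value is uncertain because mouse carries near-identical copies of this gene. In the same table the copies Dsg1b and Dsg1c had 0.67 at 1327 CPM and 0.40 at 19.1 CPM, each with an adjusted p of 1.

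The plaque genes also had small positive log2 fold changes in the authors' deposited table. Jup (ENSMUSG00000001552, chromosome 11, 100368958 to 100397763, minus strand), which binds the tails of both kinds of desmosomal cadherin, had 0.38 at 1874 CPM, the largest value after Dsc2. Pkp1 (ENSMUSG00000026413, chromosome 1, 135871395 to 135919207, minus strand), the plakophilin of stratified epithelia, had 0.29 at 1646 CPM. Pkp3 (ENSMUSG00000054065, chromosome 7, 141078218 to 141090510, plus strand), a plakophilin of most epithelia, had 0.13 at 195 CPM. Dsp (ENSMUSG00000054889, chromosome 13, 38151294 to 38198577, plus strand), which anchors keratin filaments, had 0.37 at 10389 CPM, with an interval of -0.85 to 1.58. The p-values of these 4 genes and of the other genes that were not called ran from 0.533 to 0.906 before adjustment.

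The small positive values have to be read against genes at the same level. The median log2 fold change was 0.00 over all genes and 0.07 over genes at 16 CPM or more, of which 56.9% had a higher value in cKO. Among the 101 genes nearest in level to Dsp the median was 0.22, with a middle range of 0.07 to 0.38, so the 0.37 of Dsp lay inside it. These sets of 101 genes were not cleared of the gene itself or of its family. Dsg1a had the same median and range as Dsp, and the upper end is the value of Jup. Since Dsp stands at 10389 CPM and Jup at 1874 CPM, that set spans a wide range of levels. Of the 9 genes that were not called, Jup, Dsc3 and Dsg2 lay just above the middle ranges of their like-level genes. These ranges were 0.00 to 0.33 for Jup, 0.06 to 0.35 for Dsc3 and -0.17 to 0.37 for Dsg2, and 17, 22 and 24 of the 101 genes had a larger value. Dsc1 lay below its own, -0.05 to 0.28, with 83 of 101 genes higher. For Dsc2 the middle range was -0.10 to 0.27, and 0 of the 101 genes had a higher value. After subtraction of the median of genes at 16 CPM or more, 7 of the 9 other genes had positive values, and Dsg3 turned to -0.01.

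**Figure D2:**
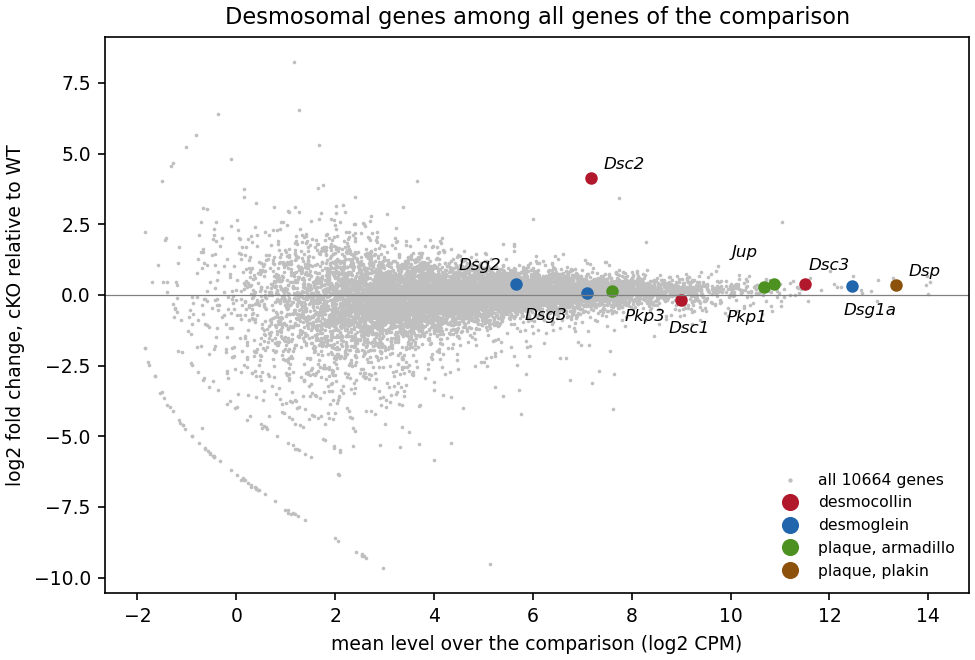
Log2 fold change of cKO relative to WT (vertical axis) against mean level in log2 CPM (horizontal axis) for all 10664 genes of the authors' deposited table, in grey, with the 10 desmosomal genes in colour. Dsc2 stands at 4.15 above the band of genes of its level, and the other desmosomal genes lie inside the band.

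By size of change Dsc2 was the highest of the 6189 genes at 16 CPM or more, and 3 of these genes had a larger absolute change. It was the seventh largest rise among the 49 genes called higher. Of the other genes of the family, Jup had 2156 and Dsg3 5489 of the 6189 genes with a larger absolute change. The 5 genes nearest to Dsc2 in log2 fold change among these 6189 were all well below it. They were the mitochondrial gene mt-Nd3 with 3.43, the peptide hormone gene Pyy with 2.68, the X-inactivation RNA gene Xist with 2.58, the gene model Gm47283 with 2.03 and the chemokine gene Ccl27b with 1.90. The first 3 were called, while Gm47283 and Ccl27b did not pass by the authors' deposited table, Gm47283 with adjusted p = 0.0747. Likeness here is the difference in 1 fold change, since the comparison gives 1 value per gene. Beside Xist, the gene Jpx was called higher as well, with 2.57 at 1.92 CPM. The sex of the animals is not among the sample labels used here, so whether it differed between cKO and WT was not tested.

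Because paralogs can exchange reads in counting, the annotated transcripts were searched for stretches that a 50-base read could not place. Of 5417 different 50-base stretches in the transcripts of Dsc2, 0 occurred in a transcript of another gene. The same held for Dsc1 with 5042, Dsc3 with 5402, Pkp1 with 5068 and Pkp3 with 3746 stretches. The longest coding sequences of Dsc2 and Dsc3 were identical at 67.8% of aligned bases, and those of Dsc2 and Dsc1 at 64.3%. The desmoglein 1 copies differed in this respect. Of the stretches of Dsg1a 35.0% were shared with another gene, mainly with Dsg1b, and the coding sequences of these copies were identical at 97.0% of aligned bases. Dsg2 shared 3.53% of its stretches, nearly all with the antisense gene Gm16090, and Dsp shared 4.66% with Gm10129, a gene model on the opposite strand. The sources used here do not say whether reads were counted by strand. A single 50-base read from the shared stretches of Dsg2 and Dsp could thus come from either partner. Whether the other read of its pair would place it was not tested. Jup shared 0.764% and Dsg3 0.116%.

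The desmocollins and desmogleins sit side by side on chromosome 18. No analysed neighbour of Dsc2 there was called higher, but only 0.459% of all genes were. A set of 11 genes without such a call is therefore not set apart. Dsc3 lies 28281 bases from Dsc2 on one side and Dsc1 24629 bases on the other, and no annotated gene overlaps Dsc2. Of 23 annotated genes with a midpoint within 1 Mb of that of Dsc2, 11 were analysed. The 7 other desmosomal cadherin genes among them had values between -0.18 and 0.67. Of the remaining 4, Trappc8, a subunit of a vesicle-tethering complex, had -0.11, the pseudogene Gm10269 had -0.11 and the ubiquitin ligase gene Rnf138 had -0.91 on the log2 scale, each with an adjusted p of 1 in the table of the authors. The ubiquitin ligase gene Rnf125, whose midpoint lies 919 kb from that of Dsc2, was called lower, with adjusted p = 0.000163 by the authors' deposited table. Its deposited log2 fold change was -7.95 at a mean level of 2.61 CPM. With equal weights this corresponds to 0.0210 CPM in cKO. At a level so near 0 the size of that fall may depend on a pseudocount, which was not tested.

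**Figure D3:**
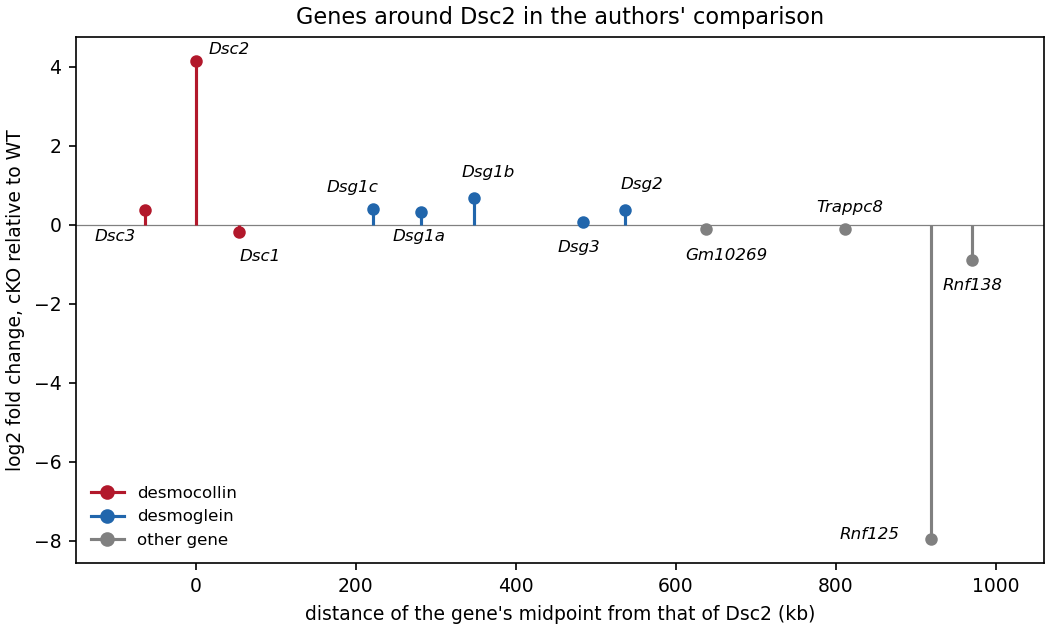
Log2 fold change of cKO relative to WT (vertical axis) for Dsc2 and the 11 analysed genes around it, by distance of the midpoint from that of Dsc2 in kb (horizontal axis). Dsc2 stands at 4.15 between Dsc3 at 0.37 and Dsc1 at -0.18, and Rnf125 at -7.95 is near 0 CPM in cKO.

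Around the desmosome, 1 of 72 analysed genes from 5 lists of junction genes was called, beside the 2.61% called over all genes, so a count of 0 in a list of this size does not set it apart. That gene was Krt2, a keratin of late epidermal differentiation, which rose by 4.02 on the log2 scale, with adjusted p = 6.62e-06 and 12.7 CPM in the authors' deposited table. Krt2 was known to be called when the lists were written. With equal weights its levels correspond to 1.47 CPM in WT and 23.8 CPM in cKO. A list of plaque linkers, plakins and keratins held 14 analysed genes, Plec, Dst and Macf1 among them. Of these 14 genes, 10 had higher and 4 lower values, with a median of 0.16. Krt5 and Krt14, the keratins of basal cells, had 0.10 and -0.24, and Krt1 and Krt10, those of suprabasal cells, 0.27 and 0.36. Of the wound keratin genes, Krt6b and Krt6a had -1.76 and -1.25, and neither passed by the authors' deposited table (adjusted p = 0.245 and 0.708). Krt17 had -0.48 and Krt16 had 0.08 at 526 CPM, and these were not called either. The plakin genes Evpl and Ppl, which build the cornified envelope beside desmosomes, had 0.54 and 0.23.

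Further desmosomal genes did not pass either, with 0 of 6 called, 3 higher and 3 lower values and a median of 0.08. Pkp2, the plakophilin of simple epithelia and heart, stood in the authors' deposited table at -2.24 and 2.10 CPM, with p = 0.00865 and an adjusted p of 0.192. Perp, a membrane protein needed for desmosome assembly, had 0.54 at 8110 CPM, and Cdsn, the corneodesmosin gene of the cornified layer, had -0.46 at 336 CPM. Pkp4, an armadillo relative of the plakophilins, had -0.24. The value of Pkp2 was opposite in sign to that of Dsc2, and Dsg4 was not analysed here.

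Adherens junctions, the actin-linked contacts that form before desmosomes, had 0 of 15 genes called and a median of 0.06. Their values ran from -0.71 for Arvcf, a catenin relative, to 0.64 for Lmo7, an actin-associated protein. The adhesion receptor gene Nectin4 had 0.60 and Jcad, a junction protein gene, -0.63. Cdh1, which encodes E-cadherin, had 0.06 at 1533 CPM, and its partner Ctnnb1, beta-catenin, had -0.04 at 428 CPM. A list of corneodesmosome proteases and inhibitors, which also held Adam9, Adam10 and Adam17, had 0 of 15 called and a median of -0.08. Of these the kallikrein genes Klk8, Klk7 and Klk5 had -1.34, -1.04 and -0.53, and Spink5, a kallikrein inhibitor gene, had 0.52. Known regulators of desmosome assembly had 0 of 22 called and a median of 0.16. The repressor genes Zeb1 and Zeb2 had -1.99 at 5.51 CPM and -1.68 at 8.80 CPM, and by the authors' deposited table neither passed (adjusted p = 0.237 and 0.387). Flot2, a membrane raft protein gene, had -1.05 at 4.38 CPM, and Gata3, an epidermal transcription factor gene, had 0.76.

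**Figure D4:**
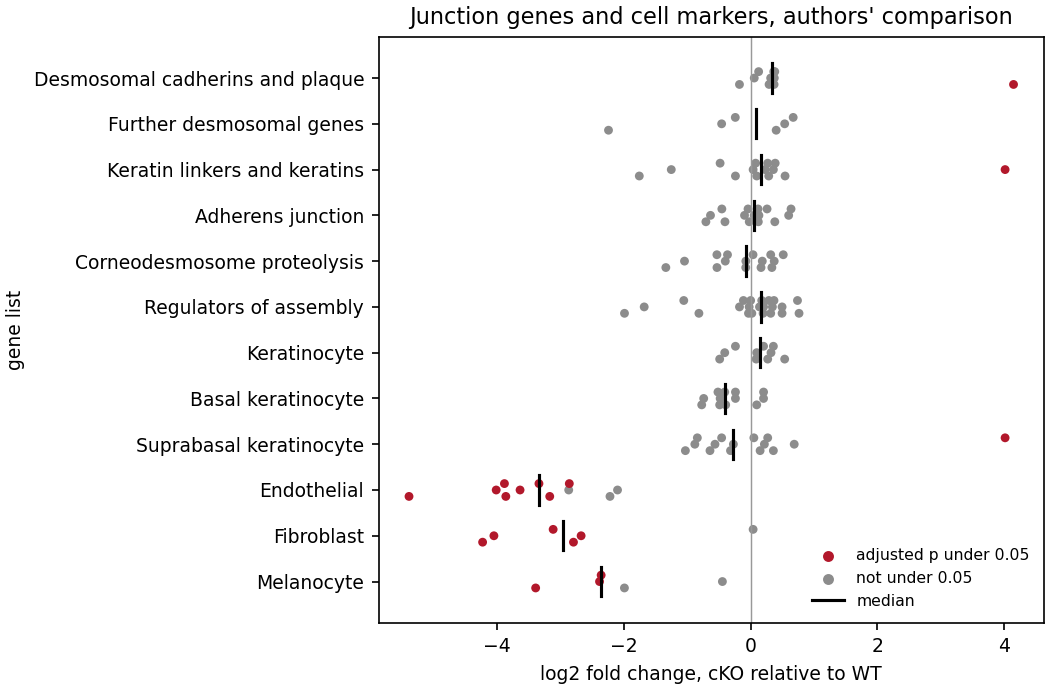
Log2 fold change of cKO relative to WT (horizontal axis) for each analysed gene of the desmosomal family, of the 5 junction lists and of cell marker lists (vertical axis), from the authors' deposited table. Red points had an adjusted p under 0.05 and black bars are medians: 0.34 for the desmosomal family, -3.34 for endothelial and -2.95 for fibroblast markers.

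Markers of the sorted cells and of other cells were set beside these values. General keratinocyte markers were all analysed, with 0 of 10 called and a median of 0.15. Basal keratinocyte markers had 0 of 12 called and a median of -0.40, and suprabasal markers had 1 of 15 called, Krt2, and a median of -0.27. Over all genes, 2.15% were called lower in cKO. Endothelial markers were lower in cKO, with 8 of 11 called and a median of -3.34, and so were 5 of 6 fibroblast and 3 of 5 melanocyte markers, with medians of -2.95 and -2.36. The summed mean levels of these lists were 100.4, 629 and 85.1 CPM. Hair follicle and sebaceous markers had 2 of 12 called lower, and all 12 had lower values in cKO, with a median of -0.77. Myeloid markers had 1 of 6 called lower, S100a9 with -2.48, and a median of -0.51. Of these 6 genes, 5 had lower values and 1 a higher value, Cd68 with 1.46 at 1.87 CPM. Of 7 genes listed for sweat gland and simple epithelium 3 were analysed and 0 called: Krt77 with 0.45 at 16671 CPM, Epcam with -0.01 at 315 CPM and Krt8 with -4.60 at 0.472 CPM. Krt7, Krt18 and Krt19 were not analysed, and Epcam is also in the myeloid list. Krt77 and Epcam are therefore not read here as a sign of sweat gland or simple epithelial cells. The 1 analysed muscle marker, Acta2, was not called. Krt2 was the only gene of these marker lists called higher. The part of these other cells in the values of the desmosomal genes was not tested, and summed levels per genotype were not analysed here. The targeted gene Nfe2l2, which encodes Nrf2, had -1.99 at 189 CPM and by the authors' deposited table did not pass (adjusted p = 0.126).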

How the data were processed

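RNA was sequenced from 2 cKO and 3 WT samples of sorted wound keratinocytes, from cDNA made with a Nugen Trio kit and read as paired ends of 50 bases, per the labels' protocols. Trimmomatic 0.35, STAR 2.6.0c, RSEM and the build mm10 are named in the submitters' processing notes. The sources used here do not give the tool behind the comparison or state which samples entered it. The deposited tables hold 1 comparison by the authors: a log2 fold change, a mean level as log2 CPM, and a p-value with its adjusted value for each of 10664 genes, per the file headers. Read to base 2, the levels summed to 1.00436e+06 CPM. The adjusted values in the authors' deposited table equalled a Benjamini-Hochberg adjustment over all genes within 7.17e-15. Text notes beside the second table gave the sign. The depth of the libraries is unknown, and no replicate spread or left-out replicate could be computed.

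Members and lists were chosen with earlier results of these data known. No model was fitted: the design written for values per sample could not be used, and the authors' adjusted p under 0.05 was used for calls over all genes. Named genes were all 10 members, Nfe2l2, the called genes and the 4 smallest p of each junction list, the analysed genes within 1 Mb of Dsc2 and the 5 nearest in fold change; others were named after their values were seen, and marker lists are summarised. Intervals used the median implied standard error of the 101 genes nearest in level, at 16 CPM or more. Positions are those of GENCODE vM21 on mm10 (GRCm38), found for 10655 genes. Shared stretches were counted over all GENCODE vM21 transcripts on either strand, and coding sequences were aligned globally with Biopython 1.88. Adjustments and the shared-stretch count were checked on simulated data. Scripts used SciPy 1.17.1, pandas 2.3.3 and NumPy 2.4.6 under Python 3.11.15, with plots by matplotlib 3.10.9.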

Additional observations from a re-analysis of the deposited data

How the results depend on the processing

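The number of called desmosomal genes was 1, Dsc2, under each of 7 alternatives: a threshold of 0.01, the Benjamini-Yekutieli adjustment, a level filter of 5 CPM, an empirical null (z divided by its robust SD of 0.821), a fold threshold of 1 on the log2 scale, and centring on the median of all genes or of genes at 16 CPM or more. The adjusted p of Dsc2 ranged from 1.06e-10 to 9.83e-06 over them. These settings cannot move a gene that the deposited p-values place far from the threshold. That holds for Dsc2, which was chosen for its difference, as well as for the other 9 genes. The settings therefore say little about any of the 10 genes. The median of the 10 genes, 0.34, ranged from 0.27 to 0.37 under centring and leaving out Dsc2 or Dsg1a, and all 10 were above 5 CPM. The junction lists had 1 called gene, Krt2, and 4 under the empirical null, which added Krt6b, Pkp2 and Zeb1. The adjusted p of Pkp2 was then 0.0308 and that of Nfe2l2 0.0155. That setting raises counts by construction, since dividing by 0.821 enlarges z, and gave 557 calls over all genes in place of 278. Over all genes a threshold of 0.01 gave 152 calls, the Benjamini-Yekutieli adjustment 116, the level filter 104 and centring on genes at 16 CPM or more 304. No paired analysis was possible because values of single samples were not among the data used here. For the same reason leaving out replicates and another pseudocount were not run, and the depth behind each value is unknown.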
